A study of Mus musculus with 16 samples.

Results

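The 85 genes described here encode subunits of the mitochondrial respiratory chain and the ATP synthase. They were chosen by symbol alone from 21887 protein-coding genes of the mouse nuclear genome: Ndufa, Ndufb, Ndufc, Ndufs or Ndufv followed by a digit, Uqcr genes, Cyc1, Cycs, the Cox4 to Cox8 subunits and the Atp5 genes. No succinate dehydrogenase gene was included, and the 13 genes on the mitochondrial genome were left out. By complex, 38 genes belonged to complex I, 9 to complex III, 20 to complex IV and 17 to the ATP synthase (complex V), and Cycs encodes the soluble carrier cytochrome c. Ndufa4 and Ndufa4l2 were counted with complex IV, where the Ndufa4 protein is found despite its name, as was Cox7a2l, which encodes a factor that joins complexes III and IV.

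The study applied chromatin immunoprecipitation and sequencing (ChIP-seq) to immortalized mouse embryonic fibroblasts that carried R26M2rtTA/+ and TetOcre, a doxycycline-controlled Cre recombinase. One line had Sdhcfl/fl and the other Sdhcfl/wt, so that induction removes either all or 1 copy of Sdhc, which encodes a membrane anchor of succinate dehydrogenase (complex II). Both lines received doxycycline at 1 µg/mL and were collected at day 16. The 16 samples comprised, for each line, 2 of input chromatin and 2 with each of 3 antibodies, against succinyllysine, H3K4me3 and H3K27me3. Each genotype is a single labelled line, and the labels do not say whether the samples of a line were separate cultures.

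Each antibody is represented by 1 list of genomic regions for its 4 ChIP samples, with no height, read count or value per sample. The lines therefore could not be compared, the depth is unknown, no error can be attached to a region, and nothing below is tested: counts and medians are set beside those of all protein-coding genes. The lists hold 26654 H3K4me3 regions (median 1100 bp), 10888 succinyllysine regions (median 300 bp) and 98342 H3K27me3 regions (median 600 bp), drawn on a grid of 100 bp. As a check of the cell type, H3K4me3 lay at 11 of 12 fibroblast marker genes (all but Thy1), where the share over all genes was 55.6%. It lay at 0 of 9 striated muscle, 0 of 4 hepatocyte and 1 of 7 germ cell and testis marker genes (Dazl, a 300 bp region). Of 4 epithelial marker genes it lay at 2, Epcam (1400 bp) and Cdh1 (1000 bp), and Epcam also had a 1100 bp H3K27me3 region.

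Complexes I, III and IV pump protons out of the mitochondrial matrix. Electrons pass from NADH through ubiquinone to cytochrome c, complex IV hands them to oxygen, and the ATP synthase uses the returning protons to make ATP. Most subunits come from single nuclear genes used in nearly all cells, but several complex IV subunits have a ubiquitous isoform and a relative made mainly in muscle, testis or lung. H3K4me3 is a histone mark of active or poised promoters, H3K27me3 marks chromatin repressed by Polycomb, and succinyllysine is lysine that carries a succinyl group from succinyl-CoA.

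A gene was called marked when a region overlapped, by 1 bp or more, the 1000 bp on either side of either gene end. By this rule H3K4me3 lay at 73 of the 85 genes (85.9%), against 12163 of all 21887 genes (55.6%). Succinyllysine lay at 2 genes (2.35%, Atp5g1 and Atp5g2), against 1187 of all genes (5.42%). H3K27me3 lay at 1 gene (1.18%, Ndufb4c), against 2971 of all genes (13.6%). In combination, 71 genes had H3K4me3 alone, 2 had H3K4me3 with succinyllysine, 1 had H3K27me3 alone and 11 had none of the 3 marks. Over all genes, these 4 states held 10473, 1006, 2260 and 7306 genes. No gene of the set had H3K4me3 and H3K27me3 together, a combination that was also rare over all genes, with 661 genes holding these 2 alone and 23 holding all 3 marks. Fewer cells with a mark and less mark per cell cannot be told apart in these bulk samples.

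Most genes without H3K4me3 belonged to complex IV. H3K4me3 lay at 36 of 38 complex I genes, 9 of 9 complex III genes, Cycs, 17 of 17 ATP synthase genes and 10 of 20 complex IV genes. Of the 12 genes without it, 8 were the tissue-specific or induced isoforms of complex IV and 2 were Ndufb4b and Ndufb4c, short copies of Ndufb4. Without these 10 genes, 73 of 75 (97.3%) had H3K4me3 at an end. The 2 exceptions were Cox5a and Cox7a2, whose listed start lies inside the annotated gene, more than 1000 bp from an end.

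A list of transcription starts from RefSeq (GRCm38.p6, the assembly behind mm10) covered 68 of the 85 genes with 73 promoters, and 17492 genes of the genome with 21263 promoters. H3K4me3 lay within 1000 bp of a listed start in 63 of 68 genes (92.6%), against 9937 of 17492 (56.8%), and the listed start itself lay inside an H3K4me3 region in the same number, 63, against 9518 of all genes (54.4%). Cox5a (chromosome 9, 57517328 to 57532427) had a 3900 bp region (57520201 to 57524100) over its start at 57521232. Cox7a2 (chromosome 9, 79755241 to 79771422) had a 3800 bp region (79757201 to 79761000) over its start at 79759853. With these 2, 75 of 85 genes had H3K4me3 at an end or on a listed start. The 5 genes with a listed start outside H3K4me3 were Cox6b2, Cox7a1, Cox7b2, Cox8b and Ndufb4b.

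In complex IV, the subunit families split by isoform. Cox4i1, the common form of subunit 4, had a 6300 bp H3K4me3 region (chromosome 8, 120664901 to 120671200), which also overlapped Emc8. Cox4i2, the form found in lung and induced by low oxygen, had none within 13315 bp. Cox6a1, the common form of subunit 6A, had a 3200 bp region on its start (chromosome 5, 115346901 to 115350100), and a wider one of 6800 bp at its other end that overlapped Gatc and Triap1. Cox6a2, the heart and skeletal muscle form, had none within 30534 bp. Cox6b1, the common form of subunit 6B, had a 2200 bp region on its start (chromosome 7, 30624101 to 30626300), and its testis form Cox6b2 had none within 9791 bp.

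The remaining families had the same arrangement, apart from Ndufa4l2. For subunit 7A, the common form Cox7a2 had the inner region given above and Cox7a2l had a 5000 bp region (chromosome 17, 83510701 to 83515700), while Cox7a1, the muscle form, had none within 6170 bp. For subunit 7B, Cox7b had a 2200 bp region (chromosome X, 106015501 to 106017700) and Cox7b2, a testis form, had none within 6195 bp. For subunit 8, Cox8a had a 3400 bp region (chromosome 19, 7214301 to 7217700), Cox8b, the muscle form, had none within 13541 bp, and Cox8c, a testis form, had none within 19605 bp. Ndufa4 had a 3900 bp region at its start (chromosome 6, 11904901 to 11908800). Ndufa4l2, which low oxygen induces, had none at an end but a 3500 bp region inside the gene (chromosome 10, 127510401 to 127513900), 1126 bp from the lower end and so just outside the 1000 bp limit. Its start is not among the listed ones.

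The 4 complex IV genes without isoforms were Cox5a, described above, Cox5b with a 3300 bp region, Cox6c with 3200 bp and Cox7c with 2400 bp. None of the 8 tissue-specific or induced isoforms carried H3K27me3 or succinyllysine at an end either, where the shares over all genes were 13.6% and 5.42%. The nearest H3K27me3 region lay 2566 bp from Cox8c, 4534 bp from Cox6a2, 15054 bp from Cox8b and 140670 bp from Cox7a1. H3K27me3 lay at 4 of 9 striated muscle marker genes (Myod1, Myh6, Myh7 and Actc1) and at 0 of 7 germ cell and testis marker genes. The common form Cox6b1 had the nearest H3K27me3 region among the common forms, 2886 bp upstream of its start.

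**Figure D1:**
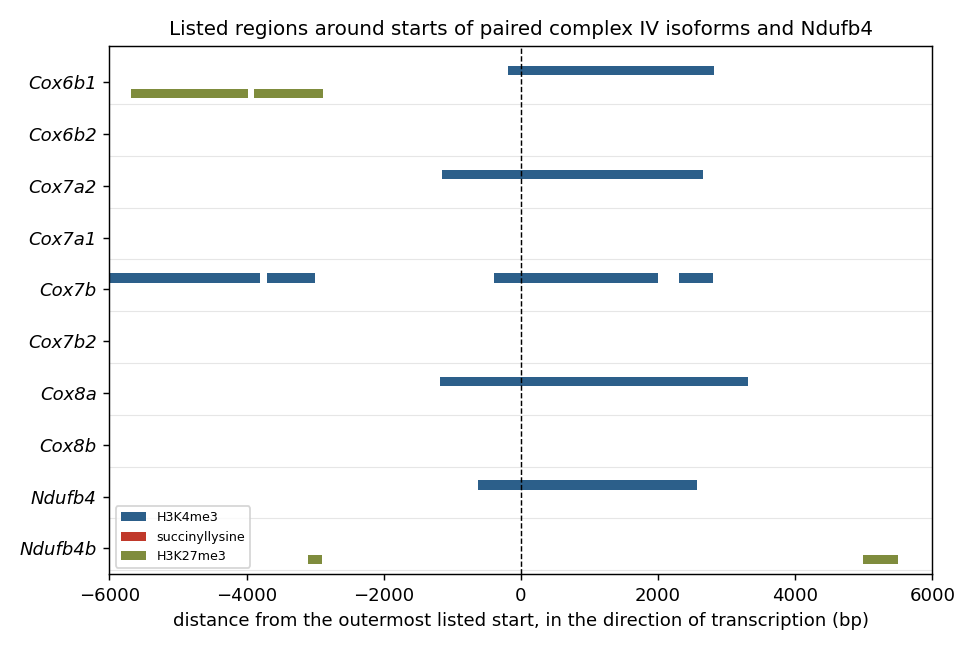
Listed regions around the outermost listed start of 4 pairs of complex IV isoforms and of Ndufb4 and Ndufb4b. The x axis is the distance from the start in bp, positive in the direction of transcription, and the bars are H3K4me3, succinyllysine and H3K27me3 regions; touching regions look like 1 bar. H3K4me3 covers the start of Cox6b1, Cox7a2, Cox7b, Cox8a and Ndufb4, and no H3K4me3 region falls within 6000 bp of the start of Cox6b2, Cox7a1, Cox7b2, Cox8b or Ndufb4b.

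The promoters of these isoforms also differed in CpG content. The 250 bases before the start of Cox8a held 11 CG dinucleotides and those of Cox8b 1. Cox7a2 held 14 and Cox7a1 held 4, and Cox6b1 held 14 and Cox6b2 held 8. Cox7b went the other way, with 5 against 9 for Cox7b2, so a marked start with few CG and an unmarked start with more also occurred. Over all listed promoters, the median was 17 CG where the start lay in H3K4me3 (11283 promoters) and 3 where it did not (9980 promoters). In the respiratory chain set it was 14.5 (68 promoters, 4 to 35) and 4 (5 promoters, 1 to 9). The 2 complex IV families with the widest contrast are shown as RefSeq sequence of GRCm38.p6, 5′ to 3′ and ending at the base before the start, with each CG in capitals.
Cox8a (chr19:7217617-7217866, minus strand): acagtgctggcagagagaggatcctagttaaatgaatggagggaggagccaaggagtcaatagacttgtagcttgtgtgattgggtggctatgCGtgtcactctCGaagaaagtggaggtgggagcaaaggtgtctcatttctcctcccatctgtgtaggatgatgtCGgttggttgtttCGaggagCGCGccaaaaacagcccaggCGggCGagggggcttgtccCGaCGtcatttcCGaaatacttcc
Cox8b (chr7:140900447-140900696, minus strand): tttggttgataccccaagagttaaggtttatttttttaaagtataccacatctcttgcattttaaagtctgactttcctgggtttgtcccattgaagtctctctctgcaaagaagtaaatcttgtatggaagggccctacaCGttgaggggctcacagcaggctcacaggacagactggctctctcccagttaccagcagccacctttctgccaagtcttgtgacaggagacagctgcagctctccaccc
Cox7a2 (chr9:79759854-79760103, minus strand): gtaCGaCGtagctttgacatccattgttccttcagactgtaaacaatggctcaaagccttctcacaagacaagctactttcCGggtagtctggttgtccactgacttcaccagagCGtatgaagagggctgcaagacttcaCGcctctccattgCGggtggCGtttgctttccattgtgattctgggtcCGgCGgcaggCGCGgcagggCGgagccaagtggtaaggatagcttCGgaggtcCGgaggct
Cox7a1 (chr7:30183921-30184170, plus strand): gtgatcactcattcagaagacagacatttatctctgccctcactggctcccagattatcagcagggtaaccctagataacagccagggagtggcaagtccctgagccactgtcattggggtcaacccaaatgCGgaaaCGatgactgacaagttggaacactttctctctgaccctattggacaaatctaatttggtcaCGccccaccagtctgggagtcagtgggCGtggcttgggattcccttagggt
In Cox8a, a cluster of CG lies in the last part of the run, next to the start, and in Cox8b the only CG lies further away.

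In complex I, the 7 core subunits, which hold the flavin, the iron-sulphur clusters and the ubiquinone site, all had H3K4me3, as did all 29 supernumerary subunits. The widest region at a gene end was 7500 bp at Ndufb10 (chromosome 17, 24717001 to 24724500), which covered the whole gene and also overlapped Rps2 and Rnf151. It was 7100 bp at Ndufa2, reaching Ik and Tmco6, and 6800 bp at Ndufs8, an iron-sulphur subunit, where it lay at the 3′ end and overlapped Tcirg1. The region on the Ndufs8 start was 1700 bp, or 3600 bp when joined with the region that touches it. Ndufs4, an accessory subunit of the NADH-oxidising arm, was among the narrowest by the widest-region measure, with 2400 bp.

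Ndufb4 and its copies differed in H3K4me3, and none of them had succinyllysine at an end. Ndufb4 had a 2700 bp H3K4me3 region on its start (chromosome 16, 37651801 to 37654500). Ndufb4b (chromosome 19, 25033108 to 25033578) and Ndufb4c (chromosome 15, 73809449 to 73809933) span only 471 and 485 bp and had no H3K4me3 within 32707 and 60348 bp. Ndufb4c was the only gene of the set with H3K27me3 at an end: regions of 1800 bp (73807701 to 73809500) and 800 bp (73809901 to 73810700) overlapped the gene. They belong to a run of 11 H3K27me3 regions between 73800901 and 73820300. At Ndufb4b the nearest H3K27me3 region lay 2907 bp away. Reads of such copies can be hard to place on the genome, and the treatment of reads with several matches is not stated in the labels or processing notes.

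In complex III, all 9 genes were marked. Cyc1, cytochrome c1, had a 10700 bp region (chromosome 15, 76343001 to 76353700), which also overlapped Maf1 and Sharpin. Uqcrfs1, the Rieske iron-sulphur protein, had 3800 bp. Uqcrh, the hinge protein, had 6400 bp and the small subunit Uqcr11 had 5800 bp, or 12900 bp when joined with the regions that touch it. The core protein Uqcrc1 had the narrowest region, 2800 bp, followed by the small subunit Uqcrb with 3400 bp. Cycs, somatic cytochrome c, had a 2400 bp region (chromosome 6, 50565201 to 50567600), among the narrower ones. Its testis counterpart Cyct, which the rule does not include, had no H3K4me3 within 9147 bp. H3K27me3 regions of 1100 bp (chromosome 2, 76352001 to 76353100) and 200 bp (76353401 to 76353600) lay at the 3′ end of Cyct. They were 7353 to 8452 bp and 6853 to 7052 bp downstream of the listed Cyct start.

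In the ATP synthase, all 5 subunits of the catalytic F1 head, all 4 of the peripheral stalk, all 5 small membrane subunits and all 3 genes of subunit c had H3K4me3. Atp5b, the catalytic beta subunit, had the widest region at an end, 9800 bp, but this lay at its 3′ end and overlapped Baz2a. Its start carried a 3500 bp region (chromosome 10, 128083201 to 128086700). Atp5md, a small membrane subunit, had 7300 bp (chromosome 19, 47086701 to 47094000) and Atp5h, subunit d of the stalk, had 7000 bp (chromosome 11, 115416001 to 115423000), each shared with a neighbour, Pdcd11 and Kctd2. The narrowest were Atp5g2 with 2600 bp and Atp5g1 with 2700 bp.

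Over all 73 marked genes, the widest H3K4me3 region at an end had a median of 4000 bp (quartiles 3000 and 5100 bp, range 2200 to 10700 bp), against 3500 bp (quartiles 2500 and 4600 bp) over all marked genes. The medians were 4000 bp in complex I, 4500 bp in complex III, 3350 bp in complex IV and 4300 bp in the ATP synthase. The ranges between the quartiles were 3000 to 5125 bp, 3800 to 5800 bp, 2600 to 4725 bp and 3500 to 5000 bp in that order, and each overlapped the others. Of 63 genes with a listed start in H3K4me3, 7 had a wider region at an end than on the start (Atp5b, Cox6a1, Ndufb11, Ndufb5, Ndufb6, Ndufs8 and Ndufv2). On the start alone the medians were 3600 bp for complex I (32 genes), 4700 bp for complex III (5 genes), 3350 bp for complex IV (10 genes) and 4000 bp for the ATP synthase (15 genes). For the core subunits of complex I the medians were 5800 bp over 7 genes at an end and 4700 bp over 5 genes on the start.

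**Figure D2:**
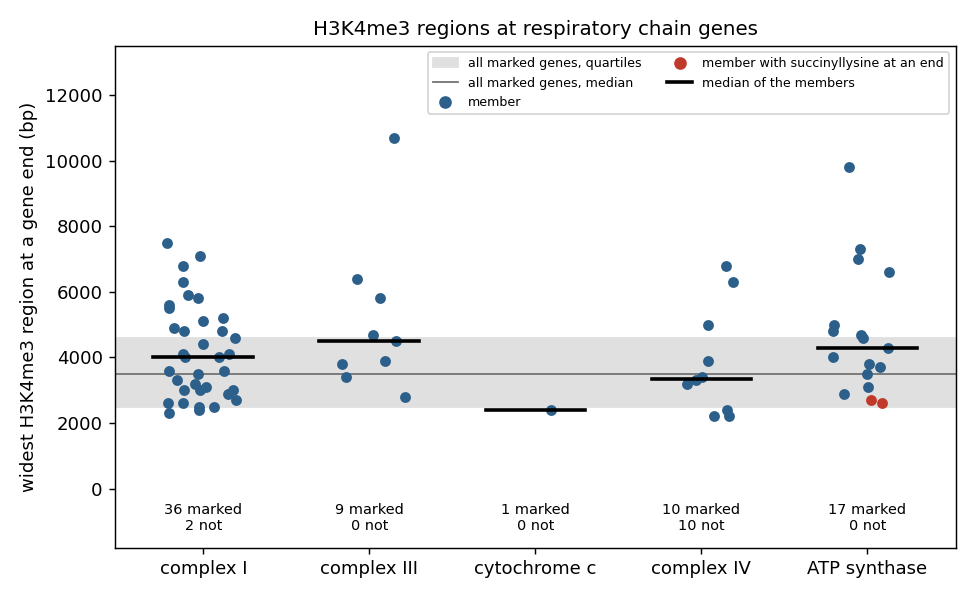
Width in bp of the widest H3K4me3 region at an end of each gene (y axis, linear), by complex (x axis); points are genes, black bars the medians of the set, and the grey line and band the median and quartiles of all marked protein-coding genes. The medians of complexes I, III and IV and the ATP synthase lie between 3350 and 4500 bp, inside the grey band, Cycs alone (2400 bp) lies just below it, and 10 of 20 complex IV genes have no point.

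The genes were short and often had close neighbours. Their median length was 6872 bp, against 17169 bp over all genes. A single H3K4me3 region covered the whole gene in 9 of 73 marked genes (12.3%), against 3.88% of all marked genes, and H3K4me3 lay at both ends in 24 (32.9%), against 13.8%. Another protein-coding gene had an end within 1000 bp in 47 of 85 (55.3%), against 5426 of all genes (24.8%). The widest H3K4me3 region at an end of a gene never overlapped another gene of the set, and other regions were not checked for this. The part of gene length and neighbours in these shares and in the share of marked genes was not tested.

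A start on the opposite strand within 1000 bp was found for 19 of 68 genes with a listed start (27.9%), against 1681 of 17492 genes (9.61%). In complex I these were Ndufa1, Ndufa5, Ndufa7, Ndufa8, Ndufa11, Ndufa13, Ndufb1, Ndufb3, Ndufb5, Ndufb11 and Ndufs3. In complex III they were Uqcr10 and Uqcrh, in complex IV Ndufa4, and in the ATP synthase Atp5c1, Atp5h, Atp5j, Atp5md and Atp5pb. Some partners belong to protein synthesis: Rps28, a protein of the cytosolic ribosome, opposite Ndufa7, and Mrpl47, a protein of the mitochondrial ribosome, opposite Ndufb5. Others include Cpsf2, a factor of messenger RNA 3′ end processing, opposite Ndufb1, and Lrrc41 opposite Uqcrh.

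The position of the H3K4me3 region differed with such a neighbour. From the outermost listed start, it reached a median of 1031 bp upstream (47 to 4030 bp) and 2567 bp downstream (1368 to 7422 bp) over 63 genes. In the 19 genes with an opposite start, the medians were 2337 bp upstream and 2537 bp downstream, and the upstream part was the longer in 7. In the 44 others they were 736 and 2693.5 bp, and the upstream part was the longer in 0. The genes with the longest upstream part were Uqcrh (4030 bp), Ndufs3 (3479 bp), Atp5md (3353 bp), Ndufa11 (3261 bp) and Ndufa7 (3171 bp), all with an opposite start. The values overlapped: Ndufb11, Ndufa8 and Ndufb5 had an opposite start and reached 81, 162 and 162 bp upstream. At Ndufb11 and Ndufb5 a second H3K4me3 region touched the first, and with both joined the upstream reach was 2581 and 3162 bp.

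The corresponding medians over all genes were close to these. With an opposite start, 1540 genes had medians of 2327 bp upstream and 2488 bp downstream. Without one, 7723 genes had 799 and 2468 bp. The upstream part was the longer in 46.0% and 9.44% of them, against 7 of 19 and 0 of 44 genes of the set.

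**Figure D3:**
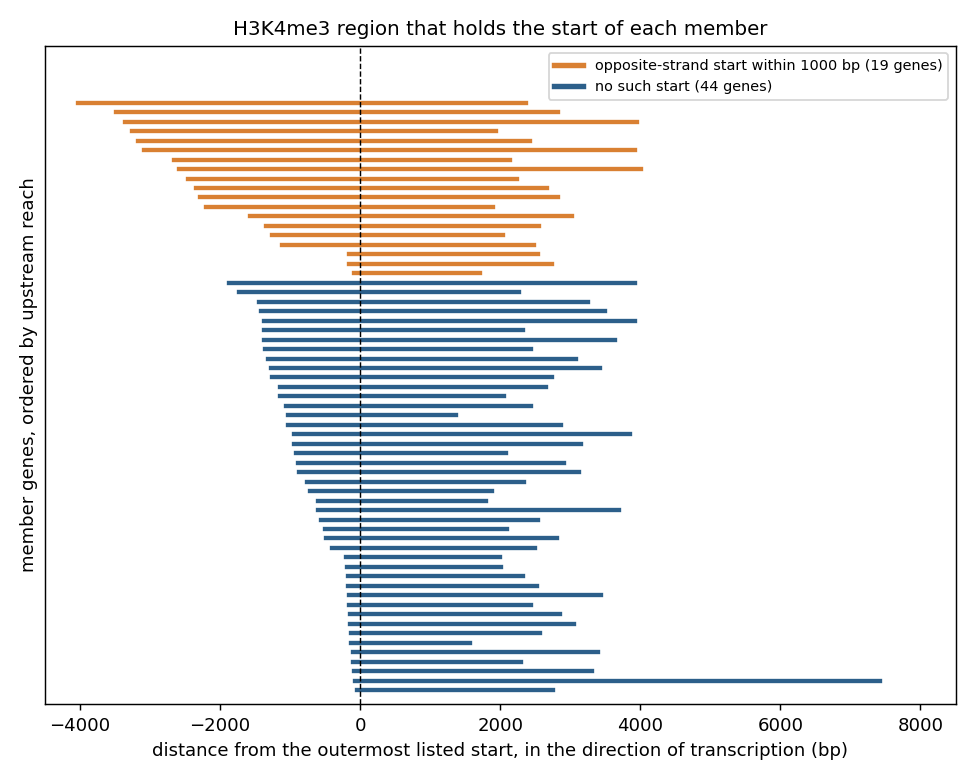
The H3K4me3 region that holds the outermost listed start of each of 63 genes. The x axis is the distance from that start in bp, positive in the direction of transcription, and each line is 1 gene, ordered by upstream reach within the 19 genes with an opposite-strand start within 1000 bp (orange) and the 44 without (blue). Orange lines reach up to 4030 bp upstream and blue lines up to 1879 bp.

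The 3 genes of subunit c, which all encode the same mature protein of the proton-driven rotor ring, differed in succinyllysine. At Atp5g1 (chromosome 11, 96072793 to 96075694, minus strand), a 700 bp succinyllysine region (96076201 to 96076900) lay from 1269 to 570 bp before the start at 96075631. It fell inside a 900 bp H3K4me3 region (96076101 to 96077000), apart from the 2700 bp region that covered the start (96073101 to 96075800). At Atp5g2 (chromosome 15, 102662868 to 102671047, minus strand), a 2200 bp succinyllysine region (102671501 to 102673700) lay from 2653 to 454 bp before the start at 102671047. It overlapped a 1900 bp H3K4me3 region (102671301 to 102673200), apart from the 2600 bp region on the start (102668601 to 102671200). At Atp5g3 (chromosome 2, 73908447 to 73912464), 1 undivided H3K4me3 region of 3700 bp (73909001 to 73912700) covered the start and the nearest succinyllysine region was 739536 bp away.

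Succinyllysine thus lay upstream of the start, not on it, and over a second H3K4me3 region, in both marked genes. A second H3K4me3 region within 500 bp upstream of the start region was found in 13 of 63 genes (20.6%), against 1438 of 9518 genes (15.1%). Among these 13 were Atp5g1 and Atp5g2, and the other 11 had no succinyllysine at an end. The regions at Atp5g1 and Atp5g2 lay 506 and 453 bp beyond the gene end, inside the limit. The median distance of the set to the nearest succinyllysine region was 116481 bp, against 138413 bp over all genes, and 8 genes (9.41%) had one within 10000 bp, against 12.2%.

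**Figure D4:**
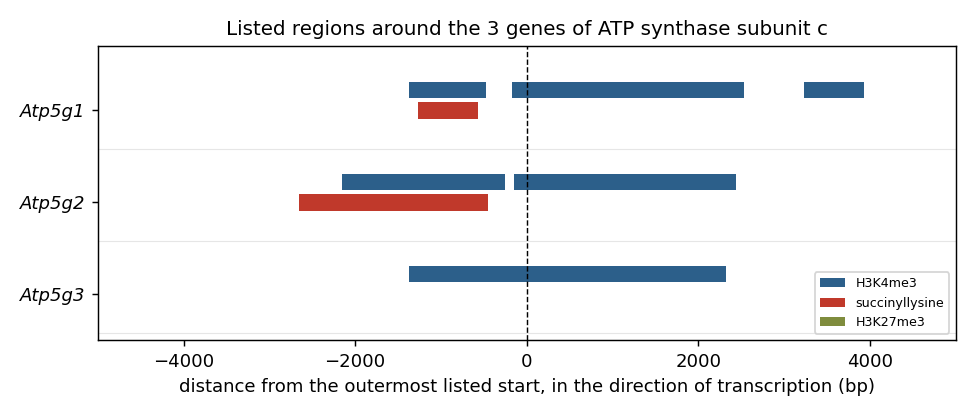
Listed regions around the outermost listed start of Atp5g1, Atp5g2 and Atp5g3. The x axis is the distance from the start in bp, positive in the direction of transcription, and bars are H3K4me3 (blue) and succinyllysine (red) regions; no H3K27me3 region falls in the window. The succinyllysine regions of Atp5g1 and Atp5g2 end 570 and 454 bp before the start, and Atp5g3 has none.

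For H3K27me3, the median distance was 36199 bp, against 46865 bp over all genes, and 14 genes (16.5%) had a region within 10000 bp, against 28.0%. Just outside the limit was Ndufa10, a supernumerary subunit, with H3K27me3 1775 bp from an end.

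The promoters were searched on both strands, from 250 bases before to 50 after each listed start, for short motifs of factors known to act on respiratory genes. The core of nuclear respiratory factor 1 (NRF1, CGCANGCG) was in 28 of 73 promoters (38.4%), against 11.1% of all 21263. The counts are of promoters, not genes: promoters of the same gene can overlap and hold the same site, as those of Ndufa5 did. The ETS core (CCGGAAG), read by the GABP complex also called nuclear respiratory factor 2, was in 15 (20.5%), against 11.6%. The YY1 motif (AAGATGG) was in 11 (15.1%), against 6.24%, and the cyclic AMP response element (TGACGTCA) in 5 (6.85%), against 2.23%. The GC box (GGGCGG) was in 28 (38.4%), against 46.2%, and the TATA box (TATAAA) in 9 (12.3%), against 12.6%. No motif holds another, and the counts are of letters only, with no binding measured. The median GC content, 56.0% in the set and 55.6% in all promoters, was nearly the same, and the median CG count was 14 against 10. The make-up of the promoters was unlike: 68 of 73 had the start in H3K4me3, against 11283 of all 21263. Over all promoters the median CG count was 17 with the start in H3K4me3 and 3 without. The NRF1 core itself holds CG, and the part of CG content in the motif shares was not tested.

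**Figure D5:**
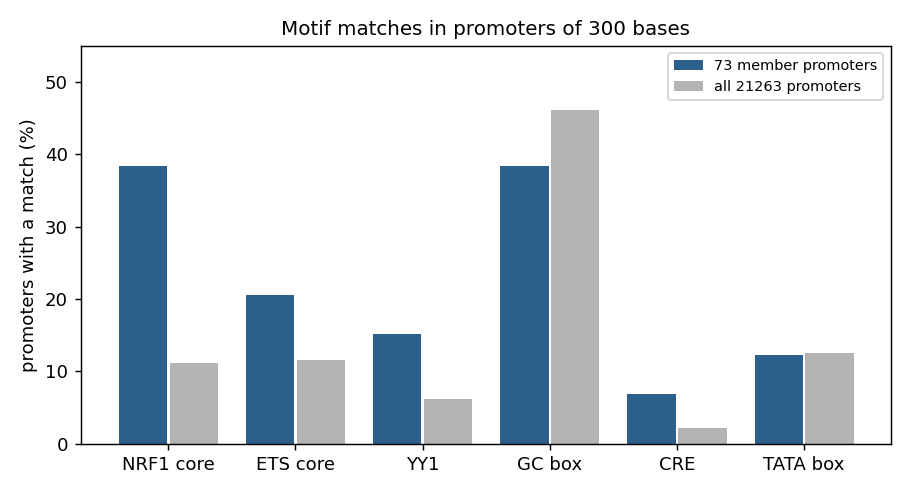
Share of promoters (y axis, %, from 0) that hold each of 6 motifs (x axis) within 250 bases before to 50 after the start, for the 73 promoters of the set (blue) and all 21263 listed promoters (grey). The NRF1 core is at 38.4% against 11.1%, and the GC box at 38.4% against 46.2%.

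The NRF1 core was found in genes including Ndufs5, Ndufs6 and Ndufb10 of complex I, Uqcr10, Uqcr11 and Uqcrc1 of complex III, Cycs, Cox6a1 of complex IV, and Atp5c1, Atp5g2 and Atp5g3 of the ATP synthase. In the 250 bases before the start alone, 19 promoters held it (26.0%, against 9.17%), none of them of complex III. The 5 promoters of Cox6b2, Cox7a1, Cox7b2, Cox8b and Ndufb4b, whose starts lay outside H3K4me3, held neither the NRF1 nor the ETS core. Over all promoters the shares were only 11.1% and 11.6%, so 5 promoters are too few to differ from them. The YY1 letters lay almost always behind the start: in the 250 bases before it alone, 1 promoter held them (1.37%, against 4.13%). Examples were chosen after the motifs were found, to show a single site beside another motif, a repeated site and 3 motifs together. They are RefSeq sequence of GRCm38.p6, 5′ to 3′, ending at the base before the start, with the motifs in capitals.
Cycs (chr6:50566570-50566819, minus strand): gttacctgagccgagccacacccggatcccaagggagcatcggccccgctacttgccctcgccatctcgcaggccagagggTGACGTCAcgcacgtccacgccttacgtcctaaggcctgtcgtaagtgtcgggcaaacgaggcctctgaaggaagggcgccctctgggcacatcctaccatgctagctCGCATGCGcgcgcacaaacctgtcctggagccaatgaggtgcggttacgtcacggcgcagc
Ndufb4 (chr16:37654369-37654618, minus strand): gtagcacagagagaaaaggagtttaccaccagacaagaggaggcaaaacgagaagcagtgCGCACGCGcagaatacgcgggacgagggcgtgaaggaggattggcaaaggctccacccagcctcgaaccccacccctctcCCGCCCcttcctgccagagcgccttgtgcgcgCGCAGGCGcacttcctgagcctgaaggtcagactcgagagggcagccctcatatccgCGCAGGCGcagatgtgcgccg
Atp5j, inner start (chr16:84834977-84835226, minus strand): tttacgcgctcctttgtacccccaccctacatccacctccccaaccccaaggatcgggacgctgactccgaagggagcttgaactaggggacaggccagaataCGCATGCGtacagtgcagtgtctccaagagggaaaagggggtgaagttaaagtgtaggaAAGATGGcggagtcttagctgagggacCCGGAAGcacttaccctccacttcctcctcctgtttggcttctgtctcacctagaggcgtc
In Cycs, the capitals mark the cyclic AMP response element, which begins 169 bases before the start, and the NRF1 core at 61 bases. In Ndufb4, they mark NRF1 cores at 190, 78 and 21 bases and a GC box, on the other strand, at 110 bases. In Atp5j, which encodes coupling factor F6, they mark NRF1, YY1 and ETS letters at 147, 88 and 61 bases. Atp5j lies opposite Gabpa, which encodes the DNA-binding subunit of GABP, and a 4600 bp H3K4me3 region (chromosome 16, 84832601 to 84837200) covered the starts of both genes.

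Genes that build and regulate the chain were counted by the same rule. Coa1, also planned for complex I assembly, was not found among the protein-coding genes and is not counted. H3K4me3 lay at 15 of 15 assembly factors of complex I, 6 of 6 of complex III, 20 of 20 of complex IV and 4 of 4 of the ATP synthase. It lay at 12 of 13 genes of coenzyme Q synthesis, all but Pdss2, which had a 4200 bp region inside the gene. Of 15 regulators it lay at 13, among them Nrf1 (5400 bp), Gabpa (4600 bp), the coactivator Ppargc1a (4300 bp), Tfam, which packages mitochondrial DNA (3200 bp), and Esrra (5100 bp). Gabpb1 had a 7100 bp region inside the gene, and Esrrb had a 1300 bp H3K27me3 region at an end. In all, 70 of 73 of these genes had H3K4me3, 3 had succinyllysine and 1 had H3K27me3, where the shares over all genes were 55.6%, 5.42% and 13.6%. The genes with succinyllysine were Cox20 (1500 bp) and Coa7 (700 bp), assembly factors of complex IV, and Coq10b (700 bp), a coenzyme Q binding protein.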

How the data were processed

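ChIP-seq of immortalized mouse embryonic fibroblasts gave 3 region lists, 1 for each antibody over 4 ChIP samples. The start and end positions in these lists are as the authors deposited them, with no scores. Alignment was with Bowtie2 2.2.3 and the build was mm10, per the submitters' processing notes. Not given in the sources used here are the peak caller and threshold, how input was used and how samples were pooled, so a region may come from either line. All starts and ends lie on a 100 bp grid and were read as 1-based and inclusive.

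Gene ends and types came from a RefSeq table (GRCm38.p6), and starts, strands and sequences from RefSeq promoters of that build. Counts were made with Python 3.11.15 and pandas 2.3.3. The procedure was tested on simulated data, with regions planted inside the 1000 bp window of 200 genes on chromosome 1 (1204 genes). All 200 genes were called, which the placement of the regions fixed in advance, so only the code was checked. Listed regions sometimes touch, so widths are those of the list.

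Genes named are those with succinyllysine or H3K27me3, those without H3K4me3 at an end, the 3 widest and 2 narrowest H3K4me3 regions per complex, and the isoform families; others were chosen after their values were seen, and 1 gene that the rule names is not reported here. The members and lists were chosen with earlier results of these data known. Alternatives were windows of 500 and 2500 bp, whole genes, starts only, region midpoints, wider regions, merged regions, autosomes, structural subunits, and the region on a start and joined touching regions, which were added after seeing the data. Input libraries and 17 genes without a listed start were not analysed here where a start was needed.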

Additional observations from a re-analysis of the deposited data

How the results depend on the processing

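No paired analysis was possible because each list holds no values per sample, and for the same reason no sample could be left out. The count of genes with H3K4me3 at an end was 73 (85.9%, against 55.6% of all genes). It ran from 50 (58.8%, against 36.9%), with the region midpoint required in the window, to 76 (89.4%, against 61.3%), over whole genes. Succinyllysine, at 2 genes, was at 1 with a 500 bp window (Atp5g2, all genes 4.67%) and at 1 by midpoints (Atp5g1, all genes 4.08%). H3K27me3, at 1 gene, was at 2 with a 2500 bp window (all genes 17.6%), which added Ndufa10. It was at 0 on listed starts (all genes 10.9%), where Ndufb4c has no entry. The median H3K4me3 width of 4000 bp became 3900 bp with windows of 500 and 2500 bp, 3950 bp over whole genes and for structural subunits, 4400 bp after merging regions within 1000 bp (all genes 3900 bp), and 3800 bp on the start (all genes 3500 bp). YY1 letters, in 11 promoters, were in 1 when only the bases before the start were searched. Joining touching regions, chosen after seeing the data, moved the median upstream reach from 2337 to 2581 bp with an opposite start and from 736 to 877 bp without, and the upstream part was then the longer in 6 and 1 genes. It widened the start region of 11 genes, most at Uqcr11 (5800 to 12900 bp), Ndufs8 (1700 to 3600 bp), Ndufb11 (1800 to 4300 bp) and Ndufb5 (2700 to 5700 bp). Counts of genes with a neighbour, 47 within 1000 bp, were 38 within 500 bp (44.7%, all genes 18.9%) and 55 within 2500 bp (64.7%, all genes 35.2%). Depth is unknown, so an unlisted gene is one where no region was called, and the absence of a mark cannot be read from it.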

Other observations

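Pseudogenes named after the chain's subunits were left out of the set, and 18 are in the gene table. H3K4me3 lay within 1000 bp of an end of 1 of them, Atp5l2-ps (a 4900 bp region, chromosome 11, 97762501 to 97767400, which ends before the pseudogene begins at 97768017). H3K27me3 lay at 1, Atp5k-ps2 (400 bp, chromosome 2, 173984101 to 173984500), and succinyllysine at 0. Among protein-coding relatives outside the symbol rule, Ndufab1, the mitochondrial acyl carrier protein that is also a complex I subunit, had a 4100 bp H3K4me3 region (chromosome 7, 122099301 to 122103400). Dmac2 had 2400 bp and Dmac2l 4400 bp, and none of these 3 had succinyllysine or H3K27me3 at an end.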
